A study of Homo sapiens with 6 samples.

Results

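The NF-kB subunits and their feedback inhibitors comprised 10 genes: the 5 subunit genes NFKB1, NFKB2, REL, RELA and RELB, the IkB genes NFKBIA and NFKBIE, and TNFAIP3, TNIP1 and TRAF1 of the A20 circuit. They were identified by NCBI gene number, and a probe set (a group of probes on the array that reads 1 transcript region) was taken where the authors' annotation gave it that number alone. This gave 25 of the 46869 probe sets with a single gene number, and all 10 members were among the 18837 genes measured. The arrays measured total RNA of U251 cells, an established line grown from a human glioma, that had received a short hairpin RNA by lentivirus. Such a hairpin is processed into a small RNA that leads to cleavage of the transcript it matches. The control group, called shCtrl here (NC in the titles), carried a negative control hairpin and the other group, shCPVL (KD in the titles), carried a hairpin against CPVL, a serine carboxypeptidase. Each group held 3 arrays. The labels give no hairpin sequence or number of hairpins, no time after infection, clone or batch, and do not say that replicates were separate cultures. The p-values below therefore rest only on how much these arrays vary, and that variation may be technical.

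NF-kB is a family of dimeric transcription factors. In resting cells the dimers are held in the cytoplasm by IkB proteins. Ligands such as tumour necrosis factor, interleukin-1 or microbial products activate the IkB kinase complex, which marks IkB for degradation, and the freed dimers enter the nucleus and bind kB sites in promoters. NFKBIA and TNFAIP3 are themselves NF-kB target genes whose products shut the pathway off again, so their transcripts are often measured as a readout of recent NF-kB activity, although other factors can also raise them. In glioma, NF-kB is known for its part in mesenchymal and inflammatory gene expression.

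The promoters are shown because the members differ in whether a kB consensus motif lies next to the start of transcription. In the RefSeq promoter table (GRCh38.p14), 8 members had at least 1 window reaching from 250 bases before to 50 bases after a start, 15 windows in all, and RELB and NFKBIE were not matched. The kB consensus motif reads GGG, a purine (A or G), a pair of any bases, a pair of pyrimidines (C or T), CC. This motif was searched on both strands. It was present in 7 of the 15 member windows and in 11.3% of all 35116 windows; by gene, 6 of the 8 members held it, beside 13.3% of all genes in the table. The stretches below are read 5′ to 3′ along the gene's own strand, and capitals mark the letters matched by the motif. They lie at chr14:35404806-35404845 (minus strand, NFKBIA), chr6:137867177-137867228 (plus, TNFAIP3), chr4:102501295-102501334 (plus, NFKB1), chr10:102394456-102394524 (plus, NFKB2), chr2:60881512-60881552 (plus, REL) and chr5:151081052-151081091 (minus, TNIP1).
NFKBIA: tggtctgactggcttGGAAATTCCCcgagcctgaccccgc
TNFAIP3: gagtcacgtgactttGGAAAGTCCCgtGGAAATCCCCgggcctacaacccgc
NFKB1: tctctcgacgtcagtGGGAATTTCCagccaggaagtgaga
NFKB2: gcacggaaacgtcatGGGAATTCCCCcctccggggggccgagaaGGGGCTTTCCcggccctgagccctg
REL: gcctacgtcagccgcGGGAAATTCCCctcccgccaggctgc
TNIP1: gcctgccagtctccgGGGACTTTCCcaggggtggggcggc

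The NFKBIA match began 81 bases before the start. The TNFAIP3 matches began 67 and 55 bases before it, a pair separated by a short gap. The first run of capitals in NFKB2 and the run in REL each hold a pair of overlapping matches, and another NFKB2 window held 2 more matches. TRAF1 (3 windows) and RELA (2 windows) had no match to the kB consensus motif. Sites outside the windows or with other letters were not searched. The core of the interferon-stimulated response element (GAAANNGAA, either strand) was found in 2 members, NFKBIA, where it began 139 bases before the start, and RELA, where it began 237 bases before it, beside 9.86% of all genes in the table. The gamma-activated site (TTCNNNGAA) was found in RELA alone among the members, beside 9.38% of all genes in the table. A match describes the letters of the window and says nothing about binding in these cells.

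Values are log2 expression, so a difference of 1 is a doubling of the signal. Differences are shCPVL minus shCtrl, errors are SD (n = 3 arrays) or, where so marked, the standard error (SE) of the fitted change, and a gene is called at a limma adjusted p under 0.05. "Rose" and "fell" refer to called genes. Of the 10 members, 3 were called higher in shCPVL (TNFAIP3, NFKBIA and RELA) and 0 were called lower by limma. At an unadjusted p under 0.05, 4 were higher (RELB in addition) and still none was lower. The share of all genes at that unadjusted threshold was not counted, so these counts cannot be set against all genes. The same holds for the unadjusted counts of ligands and marker genes below. Array weights, the setting with the most calls, called 1 lower (NFKBIE, 0.09 below shCtrl). Among all genes tested, 19.9% were called, 8.38% higher and 11.5% lower. The median change was 0.08 over the members and -0.01 over all genes. In 4 members every shCPVL array lay above every shCtrl array, the called 3 and RELB, where 16.0% of all genes showed such a separation in that direction.

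**Figure D1:**
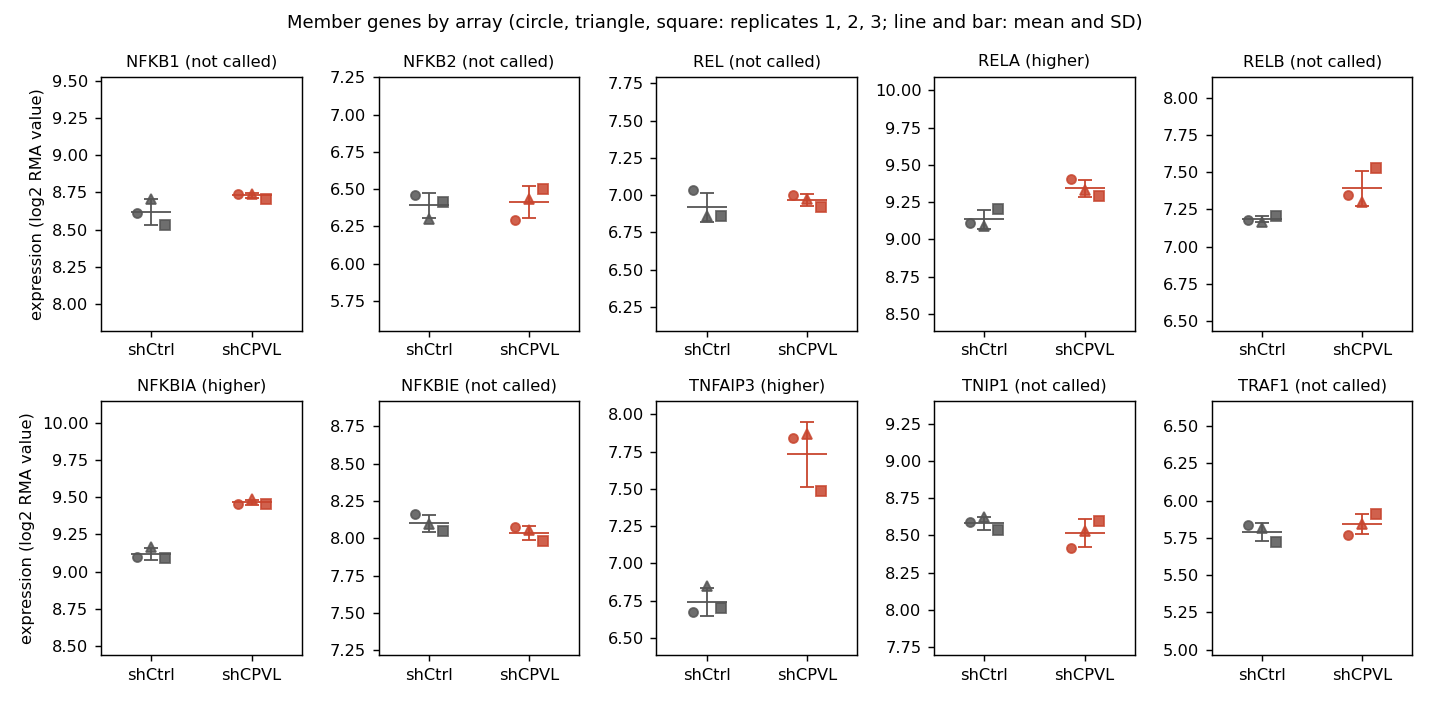
Log2 expression of each member gene (y axis; every panel spans the same number of log2 units) in the shCtrl and shCPVL arrays, with the mean and SD of 3 arrays. The TNFAIP3 and NFKBIA groups stand clear of each other, those of RELA and RELB are separated by a narrow gap, and the other 6 overlap.

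TNFAIP3 encodes A20, a ubiquitin-editing enzyme that ends signalling from the tumour necrosis factor receptor. Its 2 probe sets both read higher in every shCPVL array. The brighter one was at 6.67, 6.85 and 6.70 in shCtrl replicates 1 to 3 and at 7.84, 7.87 and 7.48 in shCPVL replicates 1 to 3. The groups did not overlap, and shCPVL replicate 3 lay below the other two of its group. As a gene TNFAIP3 rose by 0.99 (SE 0.11, 95% confidence interval 0.75 to 1.24, limma adjusted p = 5.4e-04), a 1.99-fold difference. Only 0.441% of all genes had a higher change.

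The second TNFAIP3 probe set, which carries no suffix for shared probes, was at 6.31, 6.49 and 6.14 in shCtrl and at 7.03, 6.73 and 6.88 in shCPVL. It rose by 0.56 (SE 0.10, limma adjusted p = 0.0058 over all probe sets). Here shCPVL replicate 2 was the lowest of its group, so the array that was low differed between the probe sets. The gap between the probe sets had a mean of 0.43 (SD 0.12, n = 3) over the control arrays and of 0.85 (SD 0.27, n = 3) over the knockdown arrays, a difference with an exact two-sided permutation p of 0.1. With groups of this size no smaller p can be reached. In the authors' alignments both lie on chromosome 6 from 138188723 to 138204449 on the plus strand, in a genome build that the table does not name.

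NFKBIA encodes IkB alpha, the inhibitor that retains RELA dimers in the cytoplasm and is resynthesised after each round of activation. Its brightest probe set was at 9.10, 9.16 and 9.09 in shCtrl and at 9.46, 9.48 and 9.46 in shCPVL. The arrays of a group lay close together, and the groups did not overlap. NFKBIA rose by 0.35 (SE 0.05, 95% confidence interval 0.24 to 0.46, limma adjusted p = 0.0016), a 1.27-fold difference. The other probe sets rose by 0.44 (SE 0.05) and 0.55 (SE 0.07), with limma adjusted p = 6.5e-04 and 8.1e-04 over all probe sets. The largest of these came from the probe set without a suffix for shared probes, and the brightest set, which represents the gene, gave the smallest change. The authors' alignments put the brightest set on chromosome 14 from 35870718 to 35873955 on the minus strand.

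NFKBIE encodes IkB epsilon, a second inhibitor that acts on REL and RELA dimers. It was at 8.16, 8.09 and 8.05 in shCtrl and at 8.07, 8.05 and 7.98 in shCPVL. The groups overlapped, and the difference of -0.07 did not pass (limma adjusted p = 0.50). Its 95% confidence interval ran from -0.19 to 0.06, which does not reach the estimated change of NFKBIA, 0.35.

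Among the subunits, RELA encodes p65, the subunit that carries the transactivation domain of the main dimer. Its brightest probe set was at 9.11, 9.09 and 9.21 in shCtrl and at 9.40, 9.33 and 9.29 in shCPVL. The groups did not overlap, although the highest shCtrl array and the lowest shCPVL array were close. RELA rose by 0.21 (SE 0.06, limma adjusted p = 0.035), a 1.16-fold difference. That call was lost in 8 of 17 alternative settings, among them a block for the replicate number (limma adjusted p = 0.077), the mean (0.15) and the median (0.14) of its probe sets, and the exclusion of probe sets with shared probes (0.11, limma adjusted p = 0.44). It was also lost without shCtrl replicate 1, shCtrl replicate 2, shCPVL replicate 1 or shCPVL replicate 2 (0.18 to 0.21). The other 2 RELA probe sets were at 7.33 ± 0.08 and 7.68 ± 0.17 in shCtrl and at 7.43 ± 0.13 and 7.81 ± 0.01 in shCPVL (SD, n = 3), and their groups overlapped.

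RELB encodes the transactivating partner of p52 in the alternative NF-kB pathway. It was at 7.18, 7.16 and 7.21 in shCtrl and at 7.35, 7.30 and 7.53 in shCPVL. The shCtrl arrays were tightly grouped, all shCPVL arrays lay above them, and shCPVL replicate 3 was the highest. The difference of 0.21 (SE 0.07, 95% confidence interval 0.05 to 0.36) did not pass (limma adjusted p = 0.066); it passed in 4 of 17 alternative settings, with values of 0.13 and 0.21.

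NFKB1, which encodes p105, the precursor of the DNA-binding subunit p50, was at 8.61, 8.71 and 8.53 in shCtrl and at 8.74, 8.74 and 8.71 in shCPVL. The lowest shCPVL array fell just below the highest shCtrl array, so the groups overlapped. The difference was 0.11 (95% confidence interval -0.02 to 0.24, limma adjusted p = 0.24). NFKB2, which encodes p100, the precursor of p52, was at 6.46, 6.30 and 6.41 in shCtrl and at 6.29, 6.44 and 6.50 in shCPVL. Its groups covered nearly the same range, with a difference of 0.02 (-0.14 to 0.18, limma adjusted p = 0.90). REL, which encodes c-Rel, was at 7.03, 6.86 and 6.86 in shCtrl and at 6.999, 6.97 and 6.92 in shCPVL. Its groups overlapped as well (0.05, -0.10 to 0.19, limma adjusted p = 0.70), and its dimmer probe set differed by 0.19 (limma adjusted p = 0.15 over all probe sets).

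NFKB1, NFKB2 and REL carry kB matches in the windows printed above and were not called. NFKBIA and TNFAIP3 carry such matches and were called. RELA, whose call was lost in 8 of 17 alternative settings, carried none in its windows. The part of these matches in the changes was not tested. TNIP1 encodes ABIN1, a ubiquitin-binding partner of A20, and its window holds a match too. Its 8 probe sets differed by -0.08 to 0.04, none was called, and the groups overlapped in each of them. The brightest was at 8.59, 8.62 and 8.54 in shCtrl and at 8.41, 8.53 and 8.60 in shCPVL, a difference of -0.07 (95% confidence interval -0.21 to 0.07, limma adjusted p = 0.54).

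TRAF1 encodes an adaptor of tumour necrosis factor receptors that NF-kB induces in lymphoid and other cells. Its brightest probe set was at 5.83, 5.81 and 5.72 in shCtrl and at 5.77, 5.84 and 5.91 in shCPVL, and the groups overlapped (0.05, limma adjusted p = 0.65). The other 2 probe sets differed by 0.18 and 0.19 from 4.91 and 4.87 in shCtrl. The latter did not overlap between groups (limma adjusted p = 0.054 over all probe sets). Both lay near the average of the array's background probe sets (4.95 in the control group). Log2 differences can be compressed there, so a change may not be visible in these probe sets. The brightest probe set lay above that average, at 5.79 in shCtrl and 5.84 in shCPVL. The highest of the 23 background probe sets averaged 11.50 over the arrays, so their mean marks no sharp limit of detection.

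By probe set, 6 of the 25 were called higher and 0 lower by limma, beside 18.5% of all 49293 probe sets called and 7.93% called higher. These 6 were the 3 of NFKBIA, the 2 of TNFAIP3 and 1 of the 3 of RELA. In the authors' deposited table, which holds their own comparison, the same 6 had a false discovery rate of 0.0048 or less, and the next lowest was that of RELB, at 0.059. That comparison gave the same log2 changes from the same arrays, so it is no independent check. The share of all probe sets that passed in it was not counted.

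**Figure D2:**
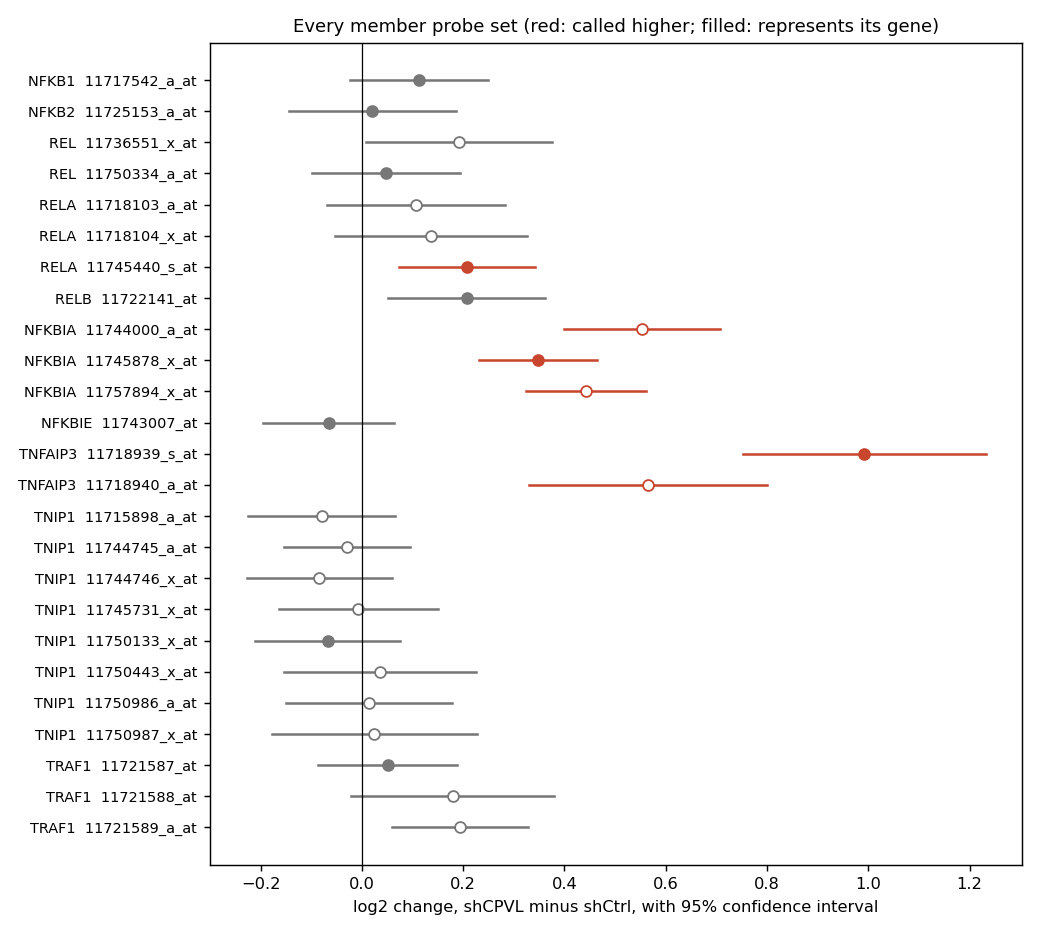
Log2 change with its 95% confidence interval (x axis) for each of the 25 member probe sets (rows); filled points are the brightest probe set of each gene and red ones were called higher. All NFKBIA and TNFAIP3 intervals lie above 0, and every TNIP1 interval includes 0.

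The genes whose profile over the 6 arrays lay nearest to that of TNFAIP3, after subtraction of each gene's shCtrl mean, were AKR1B10, an aldo-keto reductase (Euclidean distance 0.18), GBP2, an interferon-induced guanylate-binding protein (0.21), and TRIM25, a ubiquitin ligase of RIG-I signalling (0.21). They rose by 0.98, 1.05 and 1.02. This measure mainly finds genes with a change of the same size.

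Other genes of the pathway were described by role. Apart from the interferon genes below, 108 of 109 listed pathway genes were measured (SOD2 had no probe set of its own), of which 29 rose and 12 fell. These were 26.9% and 11.1%, beside 8.38% and 11.5% of all genes. Of 18 other IkB proteins and negative regulators, 7 rose (38.9%) and 1 fell (5.56%), with a median of 0.14. N4BP1, an RNA-binding inhibitor of NF-kB signalling, rose from 9.27 ± 0.11 to 10.04 ± 0.03 (SD, n = 3), a change of 0.77 (SE 0.06). NKIRAS1, a Ras-like protein that binds IkB, rose by 0.65 (SE 0.06). OTULIN, the enzyme that removes linear ubiquitin chains, fell by 0.63 (SE 0.06). Its change was -0.17 as the median over its probe sets.

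The remaining inhibitors named here were chosen after their values were seen. The A20 relative OTUD7B rose by 0.37 (SE 0.05), a call that did not hold for the median over its probe sets (0.08). NFKBIB, which encodes IkB beta, rose by 0.25 (SE 0.06), but differed by -0.025 without probe sets with shared probes, and its call was also lost without shCtrl replicate 1, shCtrl replicate 3 or shCPVL replicate 1 (0.23 in each). NFKBIZ, a nuclear IkB protein, rose by 0.28 (SE 0.07), but leaving out shCtrl replicate 2 or 3, or any single shCPVL array, ended the call (0.21 to 0.31).

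Of 15 kinases, 2 rose and 1 fell (median 0.02). That is 20% called, beside 19.9% of all genes. IRAK1, a kinase of the interleukin-1 receptor, fell by 0.34 (SE 0.05). TBK1, which acts in innate immune signalling, rose by 0.25 (SE 0.05), a call lost without shCPVL replicate 2 (0.24). IKBKB, the catalytic subunit of the IkB kinase complex that phosphorylates IkB, rose by 0.23 (SE 0.06), but the value was 0.02 as the median over its probe sets, and the call was lost without shCtrl replicate 1 or 3 or shCPVL replicate 1 or 2 (0.19 to 0.23). CHUK, the other catalytic subunit, named after its values were seen, differed by -0.16 (limma adjusted p = 0.14).

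Adaptors and ubiquitin ligases held the largest share of higher genes among these roles, with 9 of 19 higher and 1 lower (median 0.17). These were 47.4% and 5.26%, beside 8.38% and 11.5% of all genes. BIRC3, a ubiquitin ligase and NF-kB target, was at 5.47, 5.54 and 5.39 in shCtrl and at 6.41, 6.14 and 6.09 in shCPVL. The groups did not overlap, and it rose by 0.75 (SE 0.09). BTRC, part of the ligase that recognises phosphorylated IkB, rose by 0.56 (SE 0.06; median over its probe sets 0.25), and MYD88, the adaptor of Toll-like and interleukin-1 receptors, by 0.52 (SE 0.06). Of the ligase that builds linear ubiquitin chains, which OTULIN opposes, RNF31 rose by 0.33 (SE 0.05) and RBCK1 by 0.33 (SE 0.07). RBCK1 was at 0.11 and not called as the median over its probe sets, and its call was also lost without shCtrl replicate 3 (0.28). The third subunit, SHARPIN, was at 8.58 ± 0.07 and 8.59 ± 0.04 (SD, n = 3), with overlapping groups (limma adjusted p = 0.96). These 3 genes were named after their values were seen.

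Of 15 receptors, 9 were not called, 4 were called higher and 2 lower, with a median of -0.03. The called shares were 26.7% higher and 13.3% lower, beside 8.38% and 11.5% of all genes. TLR3, the endosomal sensor of double-stranded RNA, is counted among the 4, but was at 3.76 ± 0.04 in shCtrl and at 4.57 ± 0.15 in shCPVL (SD, n = 3), both lower than the array's background probe sets on average (4.95 and 4.91), so no size is given for its difference. IL1R1, the interleukin-1 receptor, rose by 0.67 (SE 0.08; 0.42 with the mean of its probe sets) and IL17RA fell by 0.53 (SE 0.06). TNFRSF1A, the main tumour necrosis factor receptor, named after its values were seen, fell by 0.44 (SE 0.07), but was at -0.07 without probe sets with shared probes. Of 12 ligands, 0 were called by limma in either direction, and 0 had an unadjusted p under 0.05. The greatest difference was that of IL18 (0.21, limma adjusted p = 0.17), which was called in 3 of 16 alternatives, among them without shCtrl replicate 3 (0.31). TNF, named after its values were seen, was at 6.04 ± 0.09 and 6.11 ± 0.06 (SD, n = 3).

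Of 29 measured target genes outside the members, 7 rose and 7 fell (median 0.04). Each was 24.1%, beside 8.38% of all genes called higher and 11.5% called lower. F3, which encodes tissue factor, the trigger of blood clotting, rose from 8.63 to 9.85, a change of 1.23 (SE 0.06). GADD45B, a stress response gene, rose by 0.85 (SE 0.05; 0.46 with the mean of its probe sets). PLAU, the urokinase gene, fell by 0.73 (SE 0.05). The other called targets are all named here, after their values were seen. CXCL10, an interferon-inducible chemokine gene, was at 4.45, 4.41 and 4.57 in shCtrl and at 5.04, 5.33 and 5.14 in shCPVL, near the mean of the background probe sets, and rose by 0.69 (SE 0.08). The syndecan gene SDC4 rose by 0.53 (SE 0.06), IRF1, a transcription factor of the interferon response, by 0.47 (SE 0.07), MYC by 0.29 (SE 0.05) and JUNB, a subunit of AP-1, by 0.24 (SE 0.06). The JUNB call was lost without shCtrl replicate 2 or 3 or any single shCPVL array (0.20 to 0.24).

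Of the targets that fell, CXCL8, which encodes interleukin-8, was at 9.35, 9.44 and 9.35 in shCtrl and at 8.87, 8.77 and 8.72 in shCPVL, so the groups did not overlap, and it fell by 0.60 (SE 0.06). The cyclin gene CCND1 fell by 0.43 (SE 0.05), the cytokine gene LIF by 0.41 (SE 0.05), CD83, a surface protein of activated immune cells, by 0.40 (SE 0.05) and the chemokine gene CCL2 by 0.38 (SE 0.06). BCL2L1, an inhibitor of apoptosis, fell by 0.18 (SE 0.05), a call lost in 9 of 17 alternatives, among them without shCtrl replicate 1 or 3 or any single shCPVL array (-0.19 to -0.16). IL6 was at 7.99 ± 0.06 and 8.09 ± 0.02 (SD, n = 3) and did not pass (limma adjusted p = 0.21). Target genes thus changed in both directions in the arrays in which TNFAIP3 and NFKBIA were higher.

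**Figure D3:**
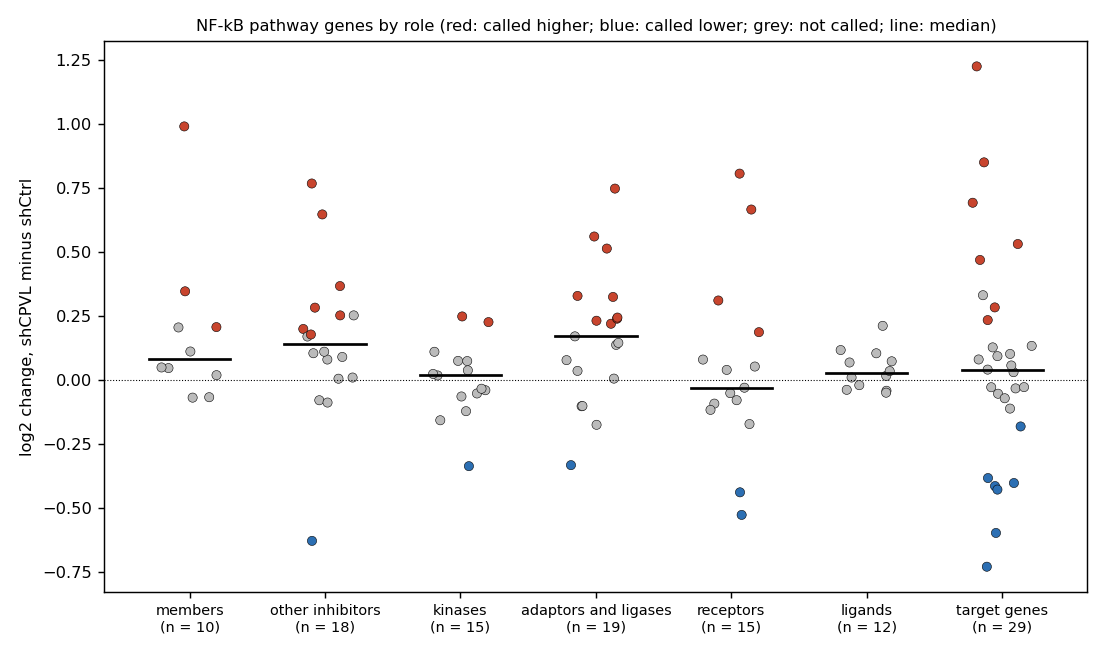
Log2 change (y axis) of the members and of 6 lists of NF-kB pathway genes by role; each point is a gene, red called higher, blue called lower, and the line is the median. Target genes spread from -0.73 to 1.23, while the ligands stay between -0.05 and 0.21.

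As a check of the labels, CPVL was at 8.24, 8.39 and 8.18 in shCtrl and at 7.38, 7.25 and 7.21 in shCPVL, and fell by 0.99 (SE 0.07, limma adjusted p = 8.3e-05; exact permutation p = 0.1). Of 10 interferon-stimulated genes taken for context, all 10 rose, with a median change of 3.48 and the greatest for IFI44L (5.16), MX1 (4.61) and IFIT1 (4.09). Hybridisation controls, spiked-in transcripts, averaged 10.74 in shCtrl and 11.04 in shCPVL, without overlap of the arrays, and their part in the members' changes was not tested. Of 12 astroglial markers, with a mean level of 10.24 to 10.25 in shCtrl and 9.95 to 9.97 in shCPVL, 5 fell, among them GFAP (-1.01) and FABP7 (-0.68; -0.38 with the mean of its probe sets), while VIM, the brightest, did not pass (14.24 and 14.29). The mean level of 11 microglia and macrophage markers, which include the leukocyte gene PTPRC at 3.41 and 3.37, was 5.48 to 5.61 in shCtrl and 5.47 to 5.64 in shCPVL with 0 called by limma (1 higher at an unadjusted p under 0.05); TYROBP was the brightest (7.57 and 7.65). Of 8 endothelial markers (6.57 to 6.61 and 6.54 to 6.61) EGFL7 fell (-0.23), a call lost in 6 of 16 alternatives, 4 of them without shCtrl replicate 1 or 2 or shCPVL replicate 1 or 2 (-0.23 to -0.20); KDR was the brightest (8.37 and 8.32). Of 8 lymphocyte markers (6.19 to 6.25 and 6.13 to 6.17) IL7R fell (-0.36). The share called lower was 41.7% of the astroglial, 12.5% of the endothelial and 12.5% of the lymphocyte markers, beside 11.5% of all genes. The part of these markers in the members' changes was not tested. In bulk RNA, fewer cells that express a gene and less RNA per cell cannot be told apart.

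**Figure D4:**
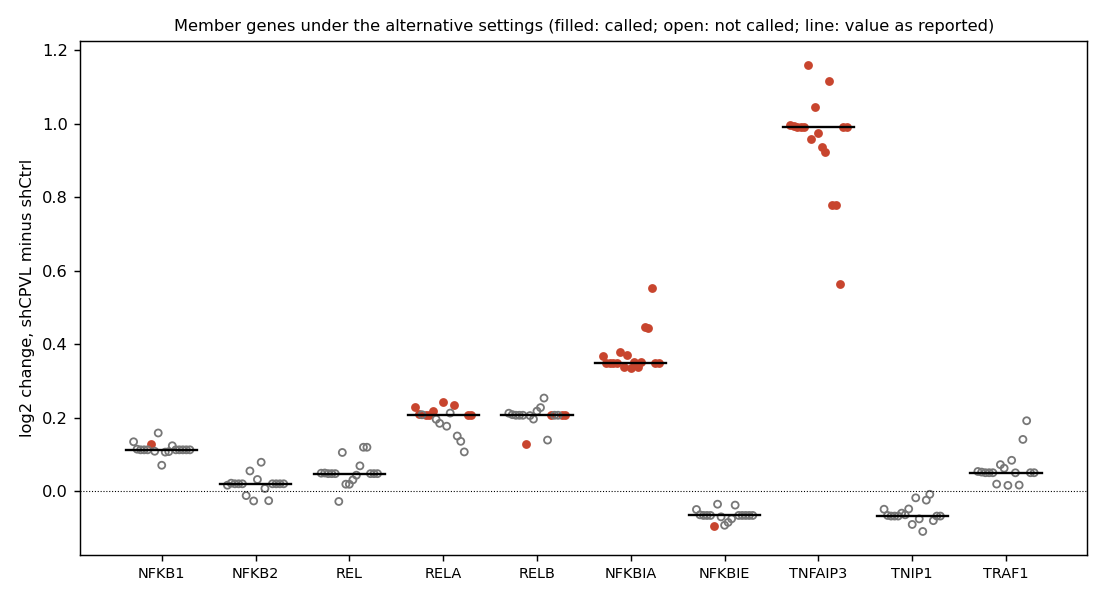
Log2 change of each member (y axis) as reported (line) and under the alternative settings (points; filled where called). TNFAIP3 ranges from 0.56 to 1.16 and NFKBIA from 0.33 to 0.55, called throughout, whereas RELA ranges from 0.11 to 0.24 and is called in 9 of 17.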

How the data were processed

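Total RNA was hybridised, biotin-labelled, to 6 arrays, 3 per group, per the labels. The deposited table holds log2 values of 49395 probe sets. RMA is the tool that the submitters' processing notes name; its version and the genome build are not given in the sources used here. RMA equalises the distribution of single probe values on all arrays before they are combined into probe sets, so changes are relative to the bulk of probes. The distributions of the deposited probe set values need not be equal, and the array medians lay between 6.85 and 6.87. The authors also deposited their own comparison, per the file headers: p-value, false discovery rate, log2 fold change, linear fold (ratio) and a score that is a fold with a sign. It supplied gene numbers and alignments. Symbols came from an NCBI RefSeq table.

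Each gene was its probe set of highest mean over the 6 arrays among those with 1 gene number. Genes and, separately, all 49293 probe sets other than array controls were fitted with limma 3.58.1 (R 4.3.3; lmFit, eBayes), two-sided, with Benjamini-Hochberg adjustment over all of them. The fit was tested on simulated data. Shared probes are said of sets whose name ends in x_at or s_at, whose probes can match other transcripts. Having only 6 arrays limits the precision. The members, lists and tests were chosen with earlier results of these data known. Named from each pathway list were up to 3 called genes with the largest change, or the 1 largest difference where none was called; from each marker list the brightest gene and up to 2 called ones. No protein sequences were used here.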

Additional observations from a re-analysis of the deposited data

How the results depend on the processing

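TNFAIP3 and NFKBIA were called higher under all 17 alternatives. CPVL kept its direction and its call in the 17 alternatives, with -1.04 to -0.93 when 1 array was left out. Of 168 alternative values of the members, 150 kept direction and call, 8 lost the call, all of them RELA, 6 gained one (RELB 4, NFKB1 1 and NFKBIE 1), and 4 uncalled values turned sign: NFKB2 to -0.012 with array weights, to -0.026 without shCtrl replicate 2 and to -0.026 without shCPVL replicate 3 (range without 1 array -0.0263 to 0.079), and REL to -0.028 with array weights. Elsewhere NFKBIB turned to -0.025 without x_at and s_at probe sets and TYROBP to -0.003 without shCtrl replicate 2 (range -0.003 to 0.14). SHARPIN, close to 0, was at -6e-04 for the mean and the median of its probe sets and at -0.028 to 0.040 without 1 array. The cause was not tested. Array weights raised the calls to 9752 of all genes, 6 members, 79 pathway genes (51 as reported, interferon genes included) and 13 member probe sets. Leaving out 1 array gave 2372 to 3259 genes, 2 to 3 members, 39 to 48 pathway genes and 5 to 6 member probe sets, against 3746 genes as reported; the lowest gene counts were 2424 without shCtrl replicate 1 and 2372 without shCPVL replicate 2. Another quantile normalization moved the split of called genes to 2107 higher and 2332 lower, from 1578 and 2168. The correlations of deviations by replicate number were -0.28, 0.11 and 0.26. With 3 arrays per group these values depend on each other and cannot show whether the numbers pair arrays. With the number as a block, 3067 genes, 2 members, 45 pathway genes and 5 member probe sets were called, RELA being lost (limma adjusted p = 0.077). Signal near the background limits TRAF1 and TLR3.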

Other observations

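The promoter windows allowed a description over all measured genes. Of 14717 measured genes with a window, 8.61% were called higher and 12.2% lower. Among the 2381 with a kB consensus match, 9.07% were higher and 13.6% lower, with a median change of -0.01. Among the 1367 with the interferon-stimulated response core, 13.1% were higher and 9.73% lower, and among the 1360 with a gamma-activated site 10.4% and 10.3%. The windows differ in base composition, with a median GC content of 67.0% where a kB match was present, 53.3% with the response core and 62.7% over all windows of measured genes; no test was made of these shares.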
